A study of Mus musculus with 45 samples.

Results

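Heterozygous and homozygous ΔG embryonic stem cells (ESCs) were compared in their transcriptional response to retinoic acid. All 12 RNA-seq samples of the ΔG line entered 1 fit, out of 24 RNA-seq samples and 45 samples in the series. The measure is the interaction, that is, the retinoic acid response of homozygous cells (retinoic acid minus control) minus the same response of heterozygous cells, each taken from the means of 3 biological replicates. A positive interaction is a response that lies higher in homozygous cells, and a negative interaction is one that lies lower. Every gene whose value varied was tested.

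The lines come from D3 mouse ESCs, where Cas9 with a pair of guide RNAs put a GFP-IRES-Puro cassette in place of the body of 5430416N02Rik, a long noncoding RNA gene. Heterozygous cells (ES_G_het and RA_G_het) kept 1 allele, and homozygous cells (ES_G_hom and RA_G_hom) carried the cassette on both, so that the controls carry the cassette as well. Control samples, labelled ES, were treated with DMSO, and samples labelled RA with 2 µM retinoic acid, both for 48 h. Which clones were sequenced is not given in the sources used here, so a difference between the genotypes and a difference between clones cannot be told apart, and p-values measure the spread between these replicates.

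Retinoic acid enters cells, is carried by the CRABP proteins and binds nuclear receptors of the RAR family, which pair with RXR receptors on direct repeats in DNA. Bound to the ligand, these receptors activate target genes such as Rarb, Cyp26a1 and the Hox genes. In ESCs the ligand shuts down the pluripotency network and drives cells toward neural, extraembryonic endoderm and other fates, depending on the medium and the dose. Because receptors, binding proteins and degrading enzymes are themselves targets, the pathway feeds back on itself.

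Expression is given as rlog, the regularized logarithm (base 2) of normalized counts, so a difference of 1 stands for a doubling. This transformation shrinks low genes, so their differences are understated. The files carry no counts, so the depth of each sample is unknown. 5430416N02Rik (ENSMUSG00000084877.1, annotated as a lincRNA on chromosome 5 from 100849861 to 100858535 of NCBIM37, minus strand) had rlog values of 5.58, 5.54 and 5.50 in heterozygous and 2.63, 2.77 and 2.85 in homozygous cells under DMSO, and 5.64, 5.52 and 5.58 against 2.63, 3.08 and 2.77 under retinoic acid. Every homozygous sample lay below every heterozygous sample, and the interaction of the gene was 0.04, SE 0.186, adjusted p = 0.926. Of 8 ESC markers, 8 fell with retinoic acid on average over both genotypes, and of 7 markers of the retinoic acid response, 7 rose. Of 8 primitive endoderm markers, 7 rose. Of 6 neural markers that varied, 3 rose and 1 fell, while Neurog2 and Hes5 stayed below 0. The mean of the 8 ESC markers lay between 10.92 and 10.96 in the heterozygous and between 10.92 and 10.95 in the homozygous control samples, and between 7.17 and 7.29 and between 7.15 and 7.27 after retinoic acid. Within groups, the SD of the difference between replicates over 11997 genes with a mean rlog of at least 3 was 0.155 to 0.212. In sample medians over these genes, the lowest was 6.50 and the highest 6.60, and the retinoic acid samples lay 0.09 above the controls on average.

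Most of the response was shared by the genotypes. Over the 11997 genes with a mean rlog of at least 3, the responses of heterozygous and homozygous cells had a correlation of 0.971 across genes, which are not independent replicates. On average over both genotypes, 3766 of 22048 genes rose (17.1%) and 2573 fell (11.7%), at an adjusted p under 0.1 and a log2 difference over 0.5. The median induction was 0.96 in heterozygous and 0.95 in homozygous cells, and the median repression -0.79 and -0.81. Of the 3766 induced genes, 1946 (51.7%) had a smaller induction in homozygous cells, and of the 2573 repressed genes, 1215 (47.2%) had a smaller repression. A general weakening or strengthening of the response was not seen in these medians.

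**Figure D1:**
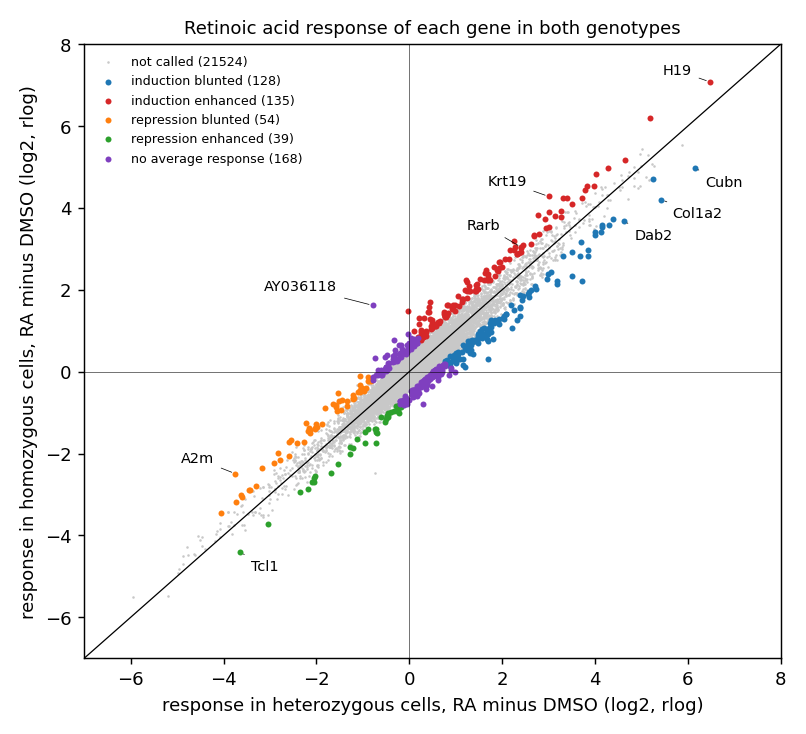
Retinoic acid response (RA minus DMSO, log2 on the rlog scale) of each of 22048 genes in heterozygous cells (horizontal axis) and homozygous cells (vertical axis), each from means of 3 samples, with the line of equal response. Grey points were not called, and the 524 called genes are coloured by class: Cubn, Col1a2 and Dab2 lie below the line among the induced genes, Krt19, Rarb and H19 above it, and AY036118 moved in opposite directions.

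Beside this shared response, 524 of the 22048 genes tested (2.38%) had a called interaction, 263 higher (1.19%) and 261 lower (1.18%). They were sorted by their average response, a quantity that is orthogonal to the interaction in this balanced design. Induction was blunted in homozygous cells for 128 genes and enhanced for 135. Repression was blunted for 54 genes and enhanced for 39. The other 168 genes had no called average response. In the blunted inductions the median response was 1.63 in heterozygous and 0.90 in homozygous cells, and 31 of the 128 genes were called as induced in heterozygous cells without being called in homozygous cells. In the enhanced inductions the medians were 1.22 and 1.96, and 33 of 135 genes were called in homozygous without being called in heterozygous cells. The blunted repressions had medians of -1.85 and -1.11, and the enhanced repressions -0.71 and -1.41. The interactions had a median size of -0.67, 0.63, 0.62 and -0.65 in these 4 classes, in the order given. Of the 524 genes, 440 had a mean rlog of at least 3, among them 100 of the 128 blunted and 127 of the 135 enhanced inductions.

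An interaction can arise in the control state, after retinoic acid, or in both. The genotypes differed at 267 genes under DMSO (1.21%) and at 471 genes under retinoic acid (2.14%). Of the 524 genes with a called interaction, 99 had a called genotype difference under DMSO only, 192 under retinoic acid only, 5 in both states and 228 in neither. Among blunted inductions, 88 of 128 genes differed under retinoic acid only and 7 under DMSO only, and the median genotype difference was 0.02 under DMSO and -0.67 under retinoic acid. Among enhanced inductions, 35 genes differed under DMSO only, 35 under retinoic acid only and 1 in both states, with medians of -0.36 and 0.30. Among blunted repressions, 19 of 54 differed under DMSO only, 17 under retinoic acid only and 1 in both states, with medians of -0.26 and 0.35. Among enhanced repressions, 13 of 39 differed under DMSO only and 8 under retinoic acid only, with medians of 0.40 and -0.27. Most blunted inductions therefore had a called difference under retinoic acid only, and their median start was similar in the genotypes. In the other 3 classes the median start differed. A difference that was not called under DMSO can still be present in single genes.

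**Figure D2:**
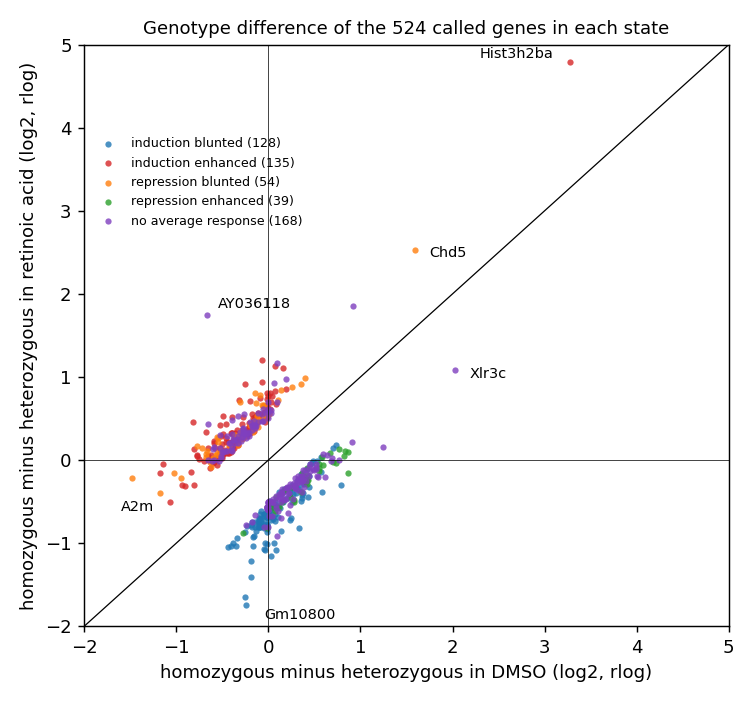
Difference between homozygous and heterozygous cells (log2 on the rlog scale, means of 3 samples) under DMSO (horizontal axis) and under retinoic acid (vertical axis) for the 524 genes with a called interaction, coloured by class. Points off the diagonal have an interaction: blunted inductions such as Gm10800 lie near 0 under DMSO and below 0 under retinoic acid, while A2m differed under DMSO (-1.48) and less under retinoic acid (-0.22).

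The blunted inductions included genes of the extraembryonic endoderm, which forms the yolk sac epithelia. Of 24 listed genes that varied, 4 had a blunted induction (Cubn, Srgn, Dab2 and Pdgfra) and 1 an enhanced induction (Lrp2), beside 2.38% of all genes, and the median interaction over the list was -0.14 against -0.01 over all genes tested. Cubn encodes cubilin, an endocytic receptor of the visceral endoderm. Its values were 3.83, 4.13 and 4.14 in heterozygous and 3.85, 4.29 and 4.06 in homozygous cells under DMSO, and 10.13, 10.19 and 10.22 against 9.04, 9.01 and 9.05 under retinoic acid. The control groups overlapped, and after retinoic acid all heterozygous samples lay above all homozygous samples. The response was 6.15 in heterozygous and 4.97 in homozygous cells (interaction -1.18, SE 0.142, adjusted p = 2.96e-06), which is a 2.27-fold smaller induction. Dab2, an adaptor of endocytic receptors, had values of 3.31, 3.27 and 3.35 in heterozygous and 3.29, 3.90 and 3.47 in homozygous cells under DMSO, and 8.00, 7.81 and 7.96 against 7.29, 7.20 and 7.17 under retinoic acid (interaction -0.95, SE 0.175, adjusted p = 0.00126). Here too the genotypes separated under retinoic acid while the controls overlapped. Srgn, which encodes the proteoglycan serglycin, responded by 2.33 in heterozygous and 1.27 in homozygous cells (interaction -1.06, SE 0.163, adjusted p = 0.000119). Pdgfra, a receptor that marks primitive endoderm, responded by 4.39 and 3.72 (interaction -0.67, SE 0.161, adjusted p = 0.0147).

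Lrp2 encodes megalin, the partner of cubilin, and moved the other way. Its mean was 6.50 in heterozygous and 6.08 in homozygous cells under DMSO, and 10.22 and 10.32 after retinoic acid (interaction 0.51, SE 0.113, adjusted p = 0.00713, called in 9 of the 12 fits that leave out 1 sample). Gata6, Gata4, Sox17 and Sox7, transcription factors that specify this lineage, did not pass the test. Gata6 had values of 3.13, 3.19 and 3.25 in heterozygous and 3.13, 3.14 and 3.26 in homozygous cells under DMSO, and 7.14, 7.19 and 7.42 against 7.30, 7.17 and 7.18 under retinoic acid, with an interaction of -0.02 (SE 0.158, adjusted p = 0.964). Gata4 had an interaction of -0.43 (adjusted p = 0.284), Sox17 of -0.15 (adjusted p = 0.759) and Sox7 of 0.08 (adjusted p = 0.892). In bulk samples, fewer cells of a type and less RNA per cell cannot be told apart. Leaving out 1 sample at a time gave 4 to 6 called members of the list.

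Some genes of the basement membrane had lower interactions as well. Of 16 listed genes, 3 had a blunted induction (Col4a5, Lama1 and Col18a1) and none an enhanced one, beside 2.38% of all genes called. The median interaction was -0.25 over the list and -0.08 over its 14 members with a mean rlog of at least 3, and 6 of the 16 lay above 0. At an unadjusted p under 0.05, 13 of the 16 passed, in either direction, beside 14.7% of all genes. Lama1, the laminin chain laid down by primitive endoderm, had values of 8.92, 8.82 and 8.90 in heterozygous and 8.39, 8.49 and 8.51 in homozygous cells under DMSO, and 11.47, 11.49 and 11.51 against 10.46, 10.46 and 10.46 under retinoic acid. Homozygous samples were lower in both states, by -0.41 under DMSO and by -1.03 under retinoic acid, and the response was 2.62 in heterozygous and 1.99 in homozygous cells (interaction -0.62, SE 0.0605, adjusted p = 8.72e-08). Col4a5, a collagen IV chain with a mean rlog below 3, responded by 1.70 in heterozygous and 0.30 in homozygous cells (interaction -1.40, SE 0.207, adjusted p = 7.47e-05). Col18a1 differed in the opposite state: it was higher by 0.45 in homozygous cells under DMSO and ended at nearly the same level (-0.05), with interaction -0.50, SE 0.0549, adjusted p = 5.85e-07, close to the limit of 0.5, and called in 8 of the 12 fits without a sample. Lamb1 (-0.48), Lamc1 (-0.42) and Sparc (-0.41) had adjusted p values of 0.00229, 3.28e-07 and 5.33e-05 but interactions under the limit. Nid2 (0.45, adjusted p = 5.35e-07) lay on the other side. Leaving out 1 sample at a time gave 2 to 4 called members.

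**Figure D3:**
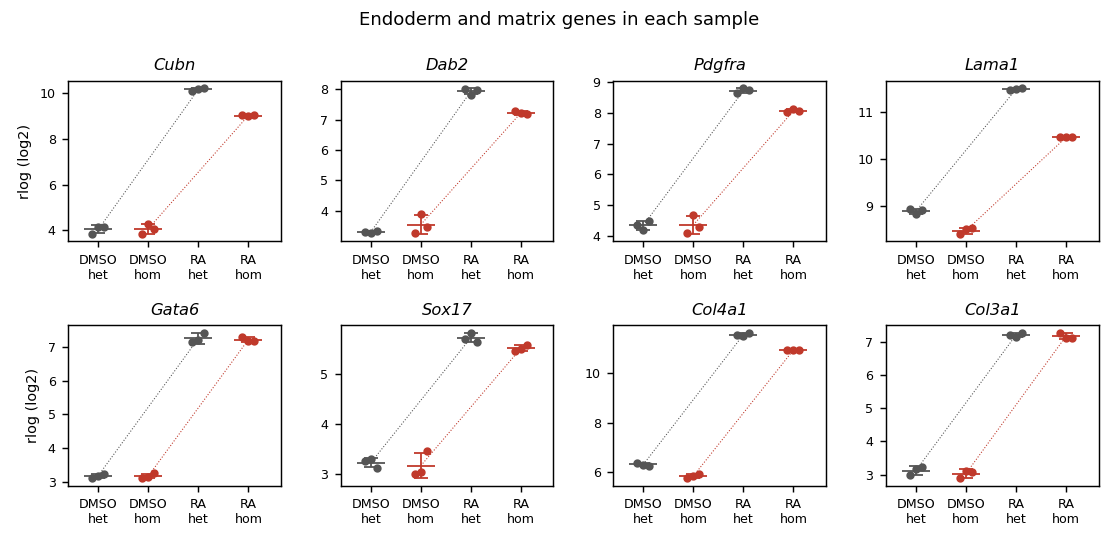
rlog values (log2) of 8 endoderm and matrix genes in each of the 12 samples: points are samples, horizontal marks with bars are the mean and SD of 3, grey is heterozygous and red homozygous, and dotted lines join the control (DMSO) to the retinoic acid (RA) mean of a genotype. Cubn, Dab2, Pdgfra and Lama1 reach lower levels in the 3 homozygous RA samples, whereas Gata6 and Col3a1 overlap between the genotypes after retinoic acid.

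The largest blunted inductions among genes with a mean rlog of at least 3 were those of Gm10800, Col1a2, Cubn, Sepp1, Alcam and 9930013L23Rik, and each of the 6 kept its call in all 12 fits that leave out a sample. Col1a2, a chain of type I collagen, had values of 3.29, 3.88 and 3.68 in heterozygous and 3.27, 3.54 and 3.46 in homozygous cells under DMSO, and 9.03, 8.99 and 9.11 against 7.69, 7.61 and 7.58 under retinoic acid. The controls overlapped, and the response was 5.43 in heterozygous and 4.20 in homozygous cells (interaction -1.22, SE 0.168, adjusted p = 2.46e-05). The partner chain Col1a1 had an interaction of -0.09 (adjusted p = 0.892), and Col3a1 of 0.06 (adjusted p = 0.894). Over 7 fibroblast markers, 6 rose on average and 1 had a called interaction, Col1a2 itself (range over the 7 from -1.22 to 0.34). The mean of the 7, which includes Col1a2, lay between 4.64 and 4.74 in the heterozygous retinoic acid samples. In the homozygous retinoic acid samples it lay between 4.27 and 4.46. Of these markers, Thy1, Lum and Postn had group means below 3 throughout, and the part of fibroblast-like cells in the result was not tested. Sepp1, which encodes a selenium transport protein, responded by 3.50 and 2.34 (interaction -1.16, SE 0.196, adjusted p = 0.000447). Alcam, a cell adhesion molecule, responded by 2.21 and 1.06 (interaction -1.15, SE 0.198, adjusted p = 0.000533). 9930013L23Rik responded by 1.20 in heterozygous and 0.12 in homozygous cells (interaction -1.09, SE 0.129, adjusted p = 2.51e-06), and here the homozygous cells already lay 0.79 higher under DMSO.

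Gm10800, a predicted gene on chromosome 2, had values of 3.59, 3.69 and 3.68 in heterozygous and 3.56, 3.12 and 3.58 in homozygous cells under DMSO, and 7.53, 7.39 and 7.22 against 5.73, 5.63 and 5.55 under retinoic acid. Its induction was 3.73 in heterozygous and 2.22 in homozygous cells (interaction -1.51, SE 0.180, adjusted p = 2.83e-06). Related predicted genes, chosen after their values were seen, moved likewise: the interactions were -1.01 for Gm11168 (adjusted p = 0.00157), -0.86 for Gm10801 (adjusted p = 0.0252) and -1.0 for Gm10718 (adjusted p = 0.00346). Predicted genes of this kind can share reads with near-identical copies, so their values are uncertain. Genes of the 2-cell-like state, a rare state of ESCs marked by Zscan4 genes, also rose with retinoic acid, and of 14 listed genes that varied 3 had a blunted induction, Dub1 (interaction -0.76, SE 0.192, adjusted p = 0.0226), Usp17l5 (interaction -0.69, SE 0.195, adjusted p = 0.0441) and Zfp352 (interaction -0.60, SE 0.184, adjusted p = 0.0677), with calls held in 12, 7 and 3 of the 12 fits without a sample, beside 2.38% of all genes called. The list had a median interaction of -0.45. Its members also differed between the genotypes in both states, with medians of -0.35 under DMSO and -0.79 under retinoic acid. In these states 6 and 11 of the 14 were called lower in homozygous cells, beside 173 and 322 of all 22048 genes. Zscan4d differed in both states with an interaction that did not pass the test: its means were 5.18 and 4.19 under DMSO and 8.51 and 7.70 after retinoic acid (interaction 0.18, SE 0.126, adjusted p = 0.553). The Zscan4 and Usp17-like genes have near-identical copies, so their separate values are uncertain.

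The retinoid pathway itself gave calls in both directions, at 21.7% of its list, beside 2.38% of all genes. Of 23 listed genes, 2 had an enhanced induction, Rarb among them, and 3 a blunted one (Crabp1, Crabp2 and Rxrg), with a median interaction of -0.02. On the side of the carriers, Crabp1 and Crabp2, which bind retinoic acid in the cytoplasm, responded by 2.02 and 1.32 (interaction -0.71, SE 0.204, adjusted p = 0.0507) and by 5.25 and 4.71 (interaction -0.53, SE 0.162, adjusted p = 0.0671), and their calls held in 5 and 3 of the 12 fits without a sample. Leaving out 1 sample gave 3 to 6 called members of the list, with 3 left without ES_G_het replicate 1, RA_G_het replicate 1 or 2, or RA_G_hom replicate 1 or 2.

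Among the receptors, Rarb had values of 5.70, 5.75 and 5.72 in heterozygous and 5.42, 5.37 and 5.12 in homozygous cells under DMSO, and 8.05, 8.17 and 8.19 against 8.32, 8.34 and 8.36 under retinoic acid. Homozygous samples started below all heterozygous samples and ended above all of them, and the induction was 2.41 against 3.04 (interaction 0.63, SE 0.123, adjusted p = 0.00239). Rxrg, with group means between 0.60 and 1.40, responded by 0.80 and 0.21 (interaction -0.59, SE 0.163, adjusted p = 0.0402). Rara (0.43, adjusted p = 0.114), Rarg (0.13, adjusted p = 0.682), Rxra (-0.06, adjusted p = 0.892) and Rxrb (0.02, adjusted p = 0.95) did not pass the test. Of the degrading enzymes, Cyp26a1 rose by 5.71 on average with an interaction of -0.33 (SE 0.164, adjusted p = 0.344), and Cyp26b1 had an interaction of 0.36 (adjusted p = 0.406). The transporter Stra6 had 0.20 (adjusted p = 0.651) and the reductase Dhrs3 -0.19 (adjusted p = 0.598).

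Receptor pairs of RAR and RXR bind direct repeats of a 6-base motif. The promoter windows of RefSeq (GRCm38.p6, 250 bases before to 50 after each start) were searched on both strands for repeats of AGGTCA, of the variant AGTTCA, of the variant GGGTCA or of the variant GGTTCA, in any pair, with a spacer of 5 bases (DR5) or 2 bases (DR2). Promoters were matched by symbol for 12873 of the 22048 genes, and 8 of these (0.0621%) held a DR5 and 15 (0.117%) a DR2. Of the 358 called genes with a promoter, 1 held a DR5, Rarb, and 1 a DR2, Tinagl1. Cyp26a1 held a DR5 as well. The 250 bases before the start of Rarb and Cyp26a1 are shown because Rarb had an enhanced induction and Cyp26a1, with the larger average response, had no called interaction. Capitals mark the DR5, which lies on the plus strand of the Rarb gene from base -53 to -37 and on the opposite strand of Cyp26a1 from base -32 to -16, counted from the start.
Rarb (chr14:16575477-16575726, minus strand): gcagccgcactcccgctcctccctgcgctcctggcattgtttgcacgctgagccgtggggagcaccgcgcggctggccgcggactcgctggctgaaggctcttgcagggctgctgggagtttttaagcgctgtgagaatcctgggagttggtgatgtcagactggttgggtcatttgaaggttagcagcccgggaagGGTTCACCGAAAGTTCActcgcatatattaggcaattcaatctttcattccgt
Cyp26a1 (chr19:37697558-37697807, plus strand): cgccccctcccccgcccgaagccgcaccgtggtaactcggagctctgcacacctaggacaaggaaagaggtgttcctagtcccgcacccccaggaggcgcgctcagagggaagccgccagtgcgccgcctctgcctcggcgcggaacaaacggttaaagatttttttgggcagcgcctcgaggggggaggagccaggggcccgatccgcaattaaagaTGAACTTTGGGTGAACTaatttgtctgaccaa
A match describes letters in this window and not a bound site. For CG dinucleotides, the promoter window with the most of them was taken for each gene. The median count was 26 in enhanced inductions (93 genes) and 16 in blunted inductions (83 genes). It was 23 over all 2612 genes induced on average and 19 over all 12873 genes.

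Among Hox genes, classical targets of the ligand, 5.13% were called, and among Cdx, Meis and Pbx factors 16.7%, beside 2.38% of all genes. Of 39 Hox genes, 26 rose on average and 2 had a called interaction, Hoxb13 (interaction 0.66, SE 0.192, adjusted p = 0.0541) and Hoxb9 (interaction 0.61, SE 0.175, adjusted p = 0.0507), both enhanced, both called in 4 of the 12 fits without a sample. The median interaction of the list was -0.03. Meis2, a Hox cofactor, had a blunted induction of 2.72 in heterozygous and 2.01 in homozygous cells (interaction -0.71, SE 0.0941, adjusted p = 1.55e-05), which started from a level 0.57 higher in homozygous cells. Cdx1, a homeobox gene with a blunted repression, responded by -3.46 in heterozygous and -2.90 in homozygous cells (interaction 0.56, SE 0.154, adjusted p = 0.0394, called in 9 of the 12 fits). These were the called members among 12 Cdx, Meis and Pbx factors.

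Among the largest enhanced inductions were those of Hist3h2ba, Krt19, Loxl2, Slc43a2 and D8Ertd82e, and each kept its call in all 12 fits without a sample. Krt19, a keratin of simple epithelia, had values of 4.97, 4.67 and 4.76 in heterozygous and 4.08, 3.78 and 4.10 in homozygous cells under DMSO, and 7.81, 7.75 and 7.84 against 8.24, 8.26 and 8.30 under retinoic acid. Homozygous samples lay below all heterozygous ones before and above all of them after retinoic acid, and the induction was 3.00 against 4.28 (interaction 1.28, SE 0.146, adjusted p = 1.38e-06). Loxl2, a lysyl oxidase that crosslinks collagen, had values of 8.00, 8.00 and 8.06 in heterozygous and 6.75, 6.92 and 6.98 in homozygous cells under DMSO, and 8.21, 8.18 and 8.33 against 8.22, 8.10 and 8.25 under retinoic acid. It differed by -1.14 in homozygous controls and overlapped after retinoic acid, where the response was 0.22 in heterozygous and 1.31 in homozygous cells (interaction 1.09, SE 0.104, adjusted p = 6.06e-08). Slc43a2, an amino acid transporter, did the reverse: the controls overlapped and homozygous cells ended 1.13 higher, with responses of 0.40 and 1.45 (interaction 1.06, SE 0.175, adjusted p = 0.000339). D8Ertd82e responded by 2.78 and 3.83 (interaction 1.05, SE 0.192, adjusted p = 0.00126).

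Hist3h2ba stands apart because the genotypes already differed by 3.28 under DMSO. Its values were 2.81, 3.24 and 3.18 in heterozygous and 6.18, 6.38 and 6.51 in homozygous cells under DMSO, and 2.79, 2.91 and 3.44 against 7.93, 7.74 and 7.85 under retinoic acid. The response was -0.03 in heterozygous and 1.49 in homozygous cells (interaction 1.52, SE 0.206, adjusted p = 2.15e-05). Rnf187, a ubiquitin ligase gene also on chromosome 11, differed by 3.36 under DMSO and by 3.50 under retinoic acid, and its interaction did not pass the test (interaction 0.14, SE 0.140, adjusted p = 0.697). Whether this difference belongs to the genotype or to the clone cannot be told apart.

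Of 13 epithelial genes, 2 were called, Krt19 and Cldn4, both higher, beside 1.19% of all genes. All 13 had an interaction above 0, with a median of 0.34. Cldn4, a tight junction claudin, responded by -0.53 in heterozygous and 0.07 in homozygous cells (interaction 0.61, SE 0.0976, adjusted p = 0.000225). Krt18 (0.42, adjusted p = 0.00743) and Cdh1 (0.33, adjusted p = 0.000298) stayed under the limit of 0.5. Of 11 trophoblast genes that varied, 3 were called higher, Krt7, Esx1 and Tcfap2c, beside 1.19% of all genes, and the median was 0.29. A mean rlog of at least 3 was reached by 6 of the 11. Of 4 trophoblast markers that varied, Cdx2, Elf5, Gata3 and Ascl2, 1 rose on average and 0 had a called interaction (-0.07 to 0.25). Krt7, another keratin, responded by 2.27 and 3.04 (interaction 0.77, SE 0.183, adjusted p = 0.0141), and Esx1, a placental homeobox gene, by 1.25 and 1.98 (interaction 0.73, SE 0.185, adjusted p = 0.0229). Of 22 genes of the Nodal and primitive streak list, Hand1 (interaction 0.82, SE 0.203, adjusted p = 0.0191) and Gata2 (interaction 0.66, SE 0.195, adjusted p = 0.0582) had an enhanced induction, and Eomes a blunted repression (interaction 0.60, SE 0.191, adjusted p = 0.083). The calls of Gata2 and Eomes held in 5 of the 12 fits without a sample.

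Calls were also found among signalling and imprinted genes, and are read beside the 2.38% of all genes called. Spry1 and Dusp4, feedback inhibitors of FGF and ERK signalling, had enhanced inductions of 0.43 against 1.45 (interaction 1.02, SE 0.159, adjusted p = 0.000146) and 1.94 against 2.67 (interaction 0.73, SE 0.171, adjusted p = 0.0129), among 16 listed genes with a median interaction of 0.15. Of the other targets, Skil, a repressor in TGF-beta signalling, responded by 0.53 and 1.16 (interaction 0.63, SE 0.0781, adjusted p = 4.58e-06), Ptch1, the Hedgehog receptor, by 0.32 and 0.91 (interaction 0.60, SE 0.117, adjusted p = 0.00254), and Id3, a target of BMP, by 3.69 and 3.16 (interaction -0.53, SE 0.102, adjusted p = 0.00226, called in 9 of the 12 fits). H19, an imprinted noncoding RNA, rose by 6.77 on average. Its values were 7.89, 7.95 and 8.12 in heterozygous and 7.93, 7.94 and 7.94 in homozygous cells under DMSO, and 14.46, 14.47 and 14.44 against 14.99, 15.02 and 15.03 under retinoic acid. The control groups overlapped, and all 3 homozygous samples lay above the heterozygous ones after retinoic acid (interaction 0.61, SE 0.0504, adjusted p = 3.33e-09). Of 29 imprinted genes, Dlk1 (0.60), Phlda2 (0.56) and Nnat (0.56) were called as well, all higher, with calls held in 8, 5 and 2 of the 12 fits without a sample and a median over the list of 0.05. Prom1, a membrane protein of progenitor cells, responded by 1.22 and 2.24 (interaction 1.02, SE 0.146, adjusted p = 4.57e-05). In the cell cycle, 2 of 18 cyclins and CDK inhibitors were called (11.1%), with a median interaction of -0.01 over the list. These 2 moved apart: Ccnd2 responded by 4.30 and 3.58 (interaction -0.72, SE 0.160, adjusted p = 0.00726), while Ccnd1 responded by -2.02 and -1.41 (interaction 0.62, SE 0.177, adjusted p = 0.0475). The call of Ccnd1 held in 6 of the 12 fits.

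The blunted repressions were led by A2m, Mapk8ip2, Tcfap2c, Chd5, Aire and Stc2, all called in each of the 12 fits without a sample. A2m, a protease inhibitor, had values of 7.57, 7.69 and 7.81 in heterozygous and 6.03, 6.34 and 6.26 in homozygous cells under DMSO, and 3.79, 3.92 and 4.12 against 3.57, 3.86 and 3.74 under retinoic acid. Homozygous controls lay below all heterozygous controls, and the groups overlapped after retinoic acid, with responses of -3.75 and -2.49 (interaction 1.26, SE 0.170, adjusted p = 2.01e-05). Stc2, a secreted glycoprotein, responded by -2.60 and -1.72 (interaction 0.88, SE 0.175, adjusted p = 0.00311), and Aire, a transcriptional regulator, by -1.82 and -0.88 (interaction 0.94, SE 0.185, adjusted p = 0.00255), also from lower levels in homozygous controls. Tcfap2c, the transcription factor AP-2 gamma, had values of 5.77, 5.88 and 5.93 in heterozygous and 5.69, 5.74 and 5.70 in homozygous cells under DMSO, and 3.45, 3.67 and 3.81 against 4.30, 4.70 and 4.37 under retinoic acid. Homozygous cells differed by -0.15 under DMSO and lay 0.81 higher under retinoic acid (interaction 0.96, SE 0.177, adjusted p = 0.00134). Mapk8ip2, a scaffold of JNK signalling, responded by -1.54 and -0.52 (interaction 1.02, SE 0.197, adjusted p = 0.00225). Chd5, a chromatin remodeller, was higher by 1.59 in homozygous controls and responded by -1.05 in heterozygous and -0.11 in homozygous cells (interaction 0.95, SE 0.157, adjusted p = 0.000356).

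**Figure D4:**
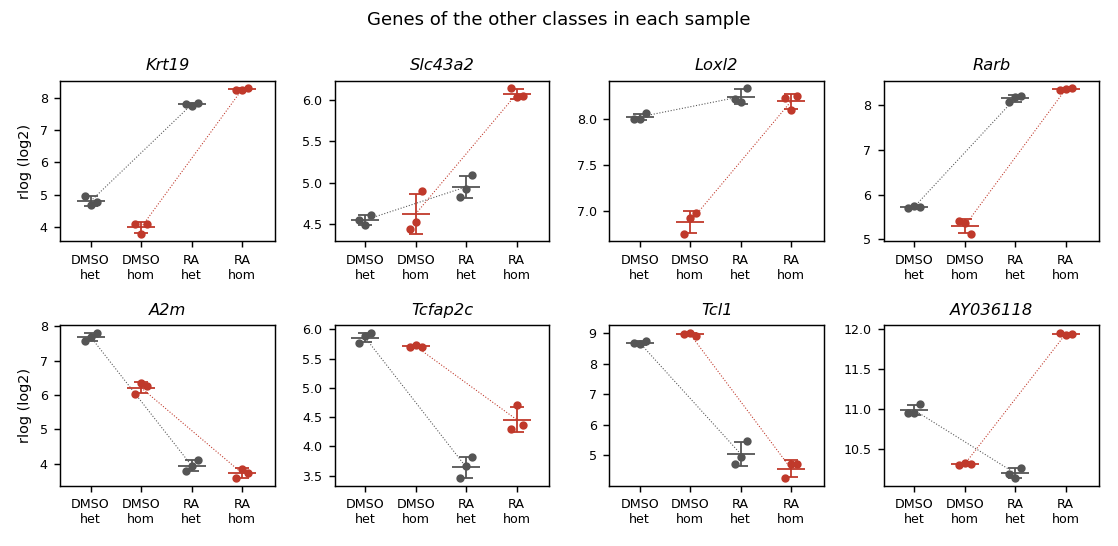
rlog values (log2) of 8 genes in each of the 12 samples, drawn as points with the mean and SD of 3 (grey heterozygous, red homozygous) and with dotted lines from the control (DMSO) to the retinoic acid (RA) mean of each genotype. Krt19, Slc43a2, Loxl2 and Rarb rise more in homozygous cells, A2m and Tcfap2c fall less, Tcl1 falls more, and AY036118 falls in heterozygous and rises in homozygous cells.

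Genes of glycolysis and the hypoxia response made up a recurrent group among the higher interactions. Of 28 listed genes, 7 were called higher (Slc2a1, Ndrg1, Slc16a3, Hk2, Pfkp, Vegfa and P4ha2) and none lower, beside 1.19% of all genes called higher, and the median interaction was 0.26 against -0.01. At an unadjusted p under 0.05, 21 of the 28 passed, beside 14.7% of all genes. On average 18 of them fell with retinoic acid, beside 11.7% of all genes. The difference lay mainly in the control state, with a median of -0.33. Under DMSO 9 of the 28 were called lower in homozygous cells and none higher, beside 173 of all 22048 genes called lower. Under retinoic acid 2 were called lower, beside 322 of all genes, and the median was -0.04. Leaving out 1 sample at a time gave 6 or 7 called members.

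Slc2a1, the glucose transporter GLUT1, had values of 10.47, 10.42 and 10.41 in heterozygous and 9.89, 9.89 and 9.95 in homozygous cells under DMSO, and 10.06, 10.20 and 10.16 against 10.45, 10.40 and 10.45 under retinoic acid. Homozygous controls lay below every other group, homozygous retinoic acid samples overlapped the heterozygous controls, and the response was -0.30 in heterozygous and 0.53 in homozygous cells (interaction 0.82, SE 0.0560, adjusted p = 4.04e-11). Slc16a3, a lactate exporter, responded by -0.89 in heterozygous and -0.12 in homozygous cells (interaction 0.77, SE 0.0880, adjusted p = 1.57e-06). Hk2, the hexokinase of the first step of glycolysis, responded by -1.99 and -1.34 (interaction 0.66, SE 0.0852, adjusted p = 1.18e-05). Ndrg1, a stress-responsive gene, responded by -1.58 and -0.81 (interaction 0.78, SE 0.159, adjusted p = 0.00383) and was lower in homozygous cells by -1.18 before and -0.40 after retinoic acid. Vegfa (0.59), Pfkp (0.60) and P4ha2 (0.58) had adjusted p values of 0.00346, 3.57e-05 and 0.0213, the last called in 10 of the 12 fits. Pfkfb3, which controls the flux through phosphofructokinase and was not on the list, had values of 5.84, 5.77 and 5.99 in heterozygous and 5.04, 5.21 and 5.36 in homozygous cells under DMSO, and 5.47, 5.60 and 5.58 against 5.92, 5.97 and 6.04 under retinoic acid (interaction 1.09, SE 0.153, adjusted p = 3.44e-05). The late glycolytic enzymes Gapdh (0.09, adjusted p = 0.0674), Pgk1 (0.11, adjusted p = 0.082) and Pkm2 (0.12, adjusted p = 0.00303) stayed under the limit of 0.5, and Hk1 (-0.19, adjusted p = 0.413) and Pfkm (-0.30, adjusted p = 0.347) lay on the other side.

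**Figure D5:**
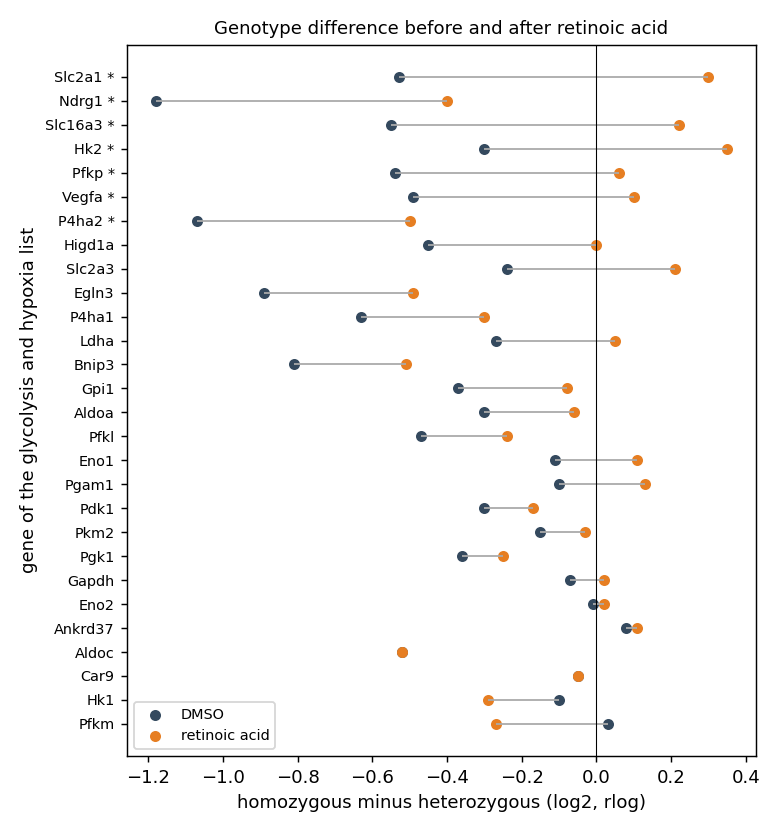
Difference between homozygous and heterozygous cells (log2 on the rlog scale, means of 3 samples) for 28 genes of glycolysis and the hypoxia response, under DMSO (dark points) and under retinoic acid (orange points), with the length of each line giving the interaction. An asterisk marks the 7 genes with a called interaction, which lie at or below -0.30 under DMSO and further to the right under retinoic acid.

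Other metabolic, stress and interferon genes are read beside the 2.38% of all genes called. Over 24 cholesterol synthesis genes that varied, 1 of which was called, the median interaction was 0.22, with a median genotype difference of -0.20 under DMSO and 0.00 under retinoic acid. Of 19 genes of the integrated stress response, 2 were called (10.5%). Atf3, a stress transcription factor, responded by 0.84 and 1.63 (interaction 0.79, SE 0.172, adjusted p = 0.00626), and Ddit3, another one, by -1.07 and -0.45 (interaction 0.62, SE 0.193, adjusted p = 0.0744), with the call of Ddit3 held in 4 of 12 fits. In the interferon list of 19 genes, 3 were called (15.8%), and Ifitm3 (interaction -0.66, SE 0.123, adjusted p = 0.00156), Ifitm1 (interaction -0.56, SE 0.0808, adjusted p = 4.57e-05) and Oas1a (interaction -0.54, SE 0.173, adjusted p = 0.0899) were called lower, the last in 2 of the 12 fits without a sample, while Ifit1, Isg15 and Irf7 had group means near or below 0.

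The enhanced repressions were led by Gm14136, Arl15, Ctsc, Gss, Kdm5d and S100a13, each called in all 12 fits without a sample. Ctsc, the protease cathepsin C, had values of 8.09, 8.04 and 7.98 in heterozygous and 8.36, 8.23 and 8.36 in homozygous cells under DMSO, and 7.02, 7.13 and 7.12 against 6.45, 6.82 and 6.47 under retinoic acid, with homozygous samples above the heterozygous ones before and below them after retinoic acid (interaction -0.79, SE 0.120, adjusted p = 0.000111). Gss, glutathione synthetase, responded by -1.69 and -2.47 (interaction -0.78, SE 0.137, adjusted p = 0.000741), from a level 0.74 higher in homozygous controls. Arl15, a small GTPase, responded by -0.70 and -1.51 (interaction -0.81, SE 0.150, adjusted p = 0.00138), S100a13, a calcium-binding protein, by -0.71 and -1.48 (interaction -0.77, SE 0.179, adjusted p = 0.0115), and Gm14136 by -0.71 and -1.74 (interaction -1.03, SE 0.174, adjusted p = 0.000454). Of 29 pluripotency genes, 24 fell on average and 1 was called, Tcl1, a coactivator of AKT, with values of 8.67, 8.64 and 8.75 in heterozygous and 8.99, 9.0 and 8.91 in homozygous cells under DMSO, and 4.71, 4.94 and 5.48 against 4.24, 4.73 and 4.70 under retinoic acid (interaction -0.77, SE 0.186, adjusted p = 0.0166). The called share of the list was 3.45%, beside 2.38% of all genes, and its median interaction was 0.03. Nanog (0.13, adjusted p = 0.463), Sox2 (-0.13, adjusted p = 0.595), Esrrb (0.18, adjusted p = 0.476) and Pou5f1 (-0.15, adjusted p = 0.287) fell in both genotypes, with interactions that did not pass the test. Interactions over the list ranged from -0.77 to 0.47, and 13 of the 29 genes had an unadjusted p under 0.05, beside 14.7% of all genes. Fgf5, a growth factor of the primed state, had a blunted induction (interaction -0.76, SE 0.206, adjusted p = 0.0341, called in 10 of the 12 fits), the only call among 9 genes of that state.

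Genes without a called average response held the largest interaction of the table. AY036118, a transcript on chromosome 17 to which ribosomal RNA reads are known to align, had values of 10.95, 10.95 and 11.06 in heterozygous and 10.30, 10.33 and 10.31 in homozygous cells under DMSO, and 10.19, 10.14 and 10.27 against 11.95, 11.92 and 11.94 under retinoic acid. It fell by 0.79 in heterozygous cells and rose by 1.62 in homozygous cells (interaction 2.41, SE 0.0489, adjusted p = 1.06e-24), and none of the 4 groups overlapped another. The libraries were depleted of ribosomal RNA, and whether leftover ribosomal reads take part in this value was not tested. The mitochondrial ribosomal RNAs mt-Rnr1 and mt-Rnr2 had interactions of -0.08 (adjusted p = 0.071) and -0.14 (adjusted p = 0.0318). Tinagl1, a matrix protein of basement membranes, had values of 7.80, 7.77 and 7.71 in heterozygous and 7.79, 7.92 and 7.85 in homozygous cells under DMSO, and 6.99, 7.09 and 6.99 against 8.26, 8.01 and 8.30 under retinoic acid. Only after retinoic acid did the genotypes separate, with a response of -0.74 in heterozygous and 0.34 in homozygous cells (interaction 1.08, SE 0.108, adjusted p = 1.58e-07). Tle6, a member of the Groucho family, responded by -0.49 and 0.40 (interaction 0.89, SE 0.154, adjusted p = 0.00067).

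On the lower side, Xlr3a and Xlr3c, X-linked genes of a multicopy family, were higher in homozygous controls by 1.24 and 2.03, and the gap narrowed to 0.16 and 1.08 after retinoic acid (interaction -1.08, SE 0.153, adjusted p = 3.57e-05, and for Xlr3c interaction -0.94, SE 0.203, adjusted p = 0.00596). Because the Xlr3 copies are near identical, these values are uncertain. Npl, an enzyme that cleaves sialic acid, responded by 0.50 and -0.34 (interaction -0.85, SE 0.192, adjusted p = 0.00893), and Mcm9, a DNA helicase, by 0.89 and 0.04 (interaction -0.84, SE 0.163, adjusted p = 0.00216). Of the 168 genes, 110 had responses of opposite sign in the genotypes. The rule of this class, a called interaction without a called average response, favours opposite signs. Both responses were called, in opposite directions, in 1 gene, AY036118.

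Position and type of the called genes were compared with those of all genes tested, of which 2.38% were called. Protein-coding genes made up 504 of the 524, that is, 2.85% of 17707 tested, beside 0.627% of 957 lincRNAs. On the X chromosome 2.44% of 985 genes were called, 7 higher and 17 lower, and on chromosome 11 2.02% of 1877, 29 higher and 9 lower. Of 11 genes on the Y chromosome, Kdm5d (interaction -0.77, SE 0.161, adjusted p = 0.00479) and Usp9y (interaction -1.0, SE 0.209, adjusted p = 0.00483) were called lower, while Ddx3y (-0.01), Eif2s3y (0.19) and Uty (-0.19) did not pass the test. Kdm5d, a histone demethylase, was higher by 0.82 in homozygous controls and overlapped between the genotypes after retinoic acid. Usp9y was singled out after its values were seen. Xist, the RNA that coats an inactive X chromosome and was noticed after values were seen, had means of 2.39 and 2.33 under DMSO and 2.83 and 4.03 under retinoic acid (interaction 1.26, SE 0.199, adjusted p = 0.000172). Across the 11997 genes with a mean rlog of at least 3, the interaction had a correlation of 0.102 with exonic GC content.

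Some groups held no called interaction by limma, beside 2.38% of all genes called, a share at which lists of this size can hold none. Of 42 S phase genes and 52 G2/M genes, none was called, with 6 (14.3%) and 12 (23.1%) at an unadjusted p under 0.05, beside 14.7% of all genes, and medians of 0.00 and -0.05. Among 79 cytosolic ribosomal protein genes none was called, with a median of -0.08 and a range of -0.44 to 0.30. Their interactions leaned to 1 side: 8 of the 79 lay above 0, and 41 (51.9%) had an unadjusted p under 0.05. None of 12 mitochondrially encoded genes (7 at an unadjusted p under 0.05, median -0.07) and none of 23 genes of DNA methylation and Polycomb (6 at an unadjusted p under 0.05, median 0.03) was called. Mid1, a ubiquitin ligase gene on the X chromosome that the study followed as a target of the lncRNA, had values of 8.36, 8.22 and 8.35 in heterozygous and 7.66, 7.64 and 7.87 in homozygous cells under DMSO, and 8.36, 8.33 and 8.44 against 8.19, 8.29 and 8.14 under retinoic acid. Homozygous controls lay below all heterozygous controls by -0.59, the gap under retinoic acid was -0.17, and the interaction of 0.41 (SE 0.0995, adjusted p = 0.0157) stayed under the limit of 0.5. The genes next to 5430416N02Rik, Lin54 (interaction 0.08, SE 0.120, adjusted p = 0.828) and Sec31a (interaction 0.08, SE 0.0845, adjusted p = 0.723), did not pass the test, nor did Trp53 (interaction 0.44, SE 0.237, adjusted p = 0.401), which had rlog values between 2.17 and 2.88.

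A second line of the series, ΔPG, in which promoter and gene body were both replaced, was treated in the same way in 12 samples of its own. Its table was normalized separately, so the interactions are set side by side without a test between the lines. The ΔPG interaction moved with exonic GC content across genes (r = 0.695 over 11904 genes), and 3056 genes were called there, 13.9% of those tested. Of the 524 ΔG genes, 51 were called in the same direction in ΔPG and 54 in the opposite one, and 269 had the same sign. After removal of each ΔPG sample's trend with GC content, 1122 of the 11904 genes in that fit were called. Of the 524, 436 could be compared, of which 169 had the same sign, 26 were called in the same and 49 in the opposite direction. Of the called endoderm genes, only the 4 with a blunted induction in ΔG are compared here, without Lrp2, whose induction was enhanced. These 4 were lower in both lines: Cubn had -1.18 in ΔG and -1.04 in ΔPG, Srgn -1.06 and -1.06, Dab2 -0.95 and -0.82, and Pdgfra -0.67 and -0.77. With the GC trend removed, the ΔPG values were -0.89 for Cubn, -0.77 for Srgn, -0.52 for Dab2 and -0.70 for Pdgfra. By contrast, Col1a2 had -1.22 and 0.21, Krt19 1.28 and -0.40, Rarb 0.63 and -0.21, and AY036118 2.41 and -0.01. Slc2a1 had 0.82 and 0.74, and Slc16a3 0.77 and 0.77, which with the GC trend removed became 0.44 and 0.40 in ΔPG. The ΔPG clones differ from the ΔG clones in the deleted region and in the cassette, so what the lines share cannot be assigned to the RNA or to its promoter from these values.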

How the data were processed

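Total RNA from the 12 ΔG samples was depleted of ribosomal RNA and sequenced as stranded paired-end libraries. According to the submitters' processing notes and the study's methods, the authors aligned reads with TopHat2 (2.1.0) to mm9, removed duplicates with Picard, counted genes with HTSeq (0.6.0) and made rlog values with DESeq2 (1.14.1). The deposited values are rlog values on the log2 scale, 1 table per line. Whether the transformation was blind to the groups is not given in the sources used here, and the depth behind each value is unknown.

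Of 33924 listed genes, 11876 were constant and left out. The 22048 others were fitted with limma (3.58.1, R 4.3.3) on the deposited values, with 4 group means and a variance trend in eBayes. P-values were adjusted by Benjamini-Hochberg over all 22048 genes, and a gene was called at an adjusted p under 0.1 with a log2 difference over 0.5. The classes came from the average response. The code was tested on simulated data. The comparison and the gene lists were chosen with earlier results of these data known. Named were 5430416N02Rik, Mid1, Lin54, Sec31a and Trp53, the 6 largest called interactions of each class with an average response, the 4 largest in each direction of the class without one (mean rlog of at least 3, the same sign in all 12 fits without a sample), and up to 4 called members of each list, with up to 4 of the largest average response where fewer were called. Some genes that this rule names are not reported here. Other list members were added as values after theirs were seen. List symbols were matched through RefSeq synonyms.

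Replicate numbers did not pair samples: deviations from the group means correlated from -0.0330 to 0.0102 between same-numbered samples and from -0.0347 to 0.0474 between others. Alternatives were quantile normalization, a common median, a filter at a mean rlog of 3, other limits, other variance models, a replicate block, removal of the trend with GC content and leaving out each sample. Files of chromosome conformation capture were not used here.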

Additional observations from a re-analysis of the deposited data

Results flagged for a closer look

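The effect of retinoic acid differed between the genotypes by the interaction term of limma at 263 genes with a higher and 261 genes with a lower value of the response in homozygous cells, out of 22048 tested. Among blunted inductions, Gm10800 (-1.51), Col1a2 (-1.22), Cubn (-1.18), Sepp1 (-1.16), Alcam (-1.15) and 9930013L23Rik (-1.09) had the largest interactions among genes with a mean rlog of at least 3. Enhanced inductions with large interactions were Hist3h2ba (1.52), Krt19 (1.28), Loxl2 (1.09), Slc43a2 (1.06) and D8Ertd82e (1.05). For blunted repressions they were A2m (1.26), Mapk8ip2 (1.02), Tcfap2c (0.96), Chd5 (0.95), Aire (0.94) and Stc2 (0.88), and for enhanced repressions Gm14136 (-1.03), Arl15 (-0.81), Ctsc (-0.79), Gss (-0.78), Kdm5d (-0.77) and S100a13 (-0.77). Without an average response, AY036118 (2.41), Pfkfb3 (1.09), Tinagl1 (1.08) and Tle6 (0.89) lay higher in homozygous cells, and Xlr3a (-1.08), Xlr3c (-0.94), Npl (-0.85) and Mcm9 (-0.84) lower.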

How the results depend on the processing

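The values are rlog without counts, with 3 replicates a group. At an adjusted p under 0.05 and a fold over 1.5, the interaction gave 137 higher and 131 lower calls, with 66 blunted and 66 enhanced inductions, 30 blunted and 21 enhanced repressions and 85 genes without an average response. Genotype differences then numbered 154 under DMSO and 275 under retinoic acid. At an adjusted p under 0.1 alone, 589 higher and 575 lower interactions were called (266, 315, 216, 258 and 109 by class, in the same order), with 13680 average responses, 12131 responses in heterozygous and 11801 in homozygous cells, and 1518 and 2814 genotype differences under DMSO and retinoic acid. With classes set by the heterozygous response alone, which shares its noise with the interaction, 162 inductions were blunted and 102 enhanced, 76 repressions were blunted and 25 enhanced, and 159 genes had no response. Leaving out 1 sample at a time kept 365 to 394 of the 524 calls, with 213 called in all 12 fits, and gave 213 to 251 higher and 192 to 221 lower interactions, with 91 to 115, 100 to 127, 43 to 56, 29 to 43 and 128 to 159 genes by class, and 6330 to 6379 average responses, 6500 to 6579 heterozygous and 6426 to 6563 homozygous responses, and 266 to 297 and 471 to 539 genotype differences. Quantile normalization kept 424 of the 524 calls, a common median 506, no variance trend 424 and robust eBayes 519. Over genes with a mean rlog of at least 3, the filter kept 440 of 440 calls and removal of the GC trend 430 of 440. With replicate number as a block, 262 higher and 257 lower interactions were called, with 128, 133, 56, 38 and 164 genes by class, and 508 of the 524 calls were kept; the numbers were not found to pair the samples. Called members of the glycolysis and hypoxia list numbered 6 to 7 without a sample, of the extraembryonic endoderm list 4 to 6, of the basement membrane list 2 to 4, of the epithelial list 2 and of the retinoid list 3 to 6. Of the retinoid members 3 were called under the stricter limits. Over 139 named genes, 2721 values under an alternative stayed on their side of the limit, 174 were no longer past it, 14 came past it and 0 reversed. A change of sign short of the limit was not counted as a reversal: 5430416N02Rik had 0.04, and -0.09 without RA_G_hom replicate 2. The leading genes of each class were named for a constant sign in the fits without a sample.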

Other observations

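Further listed genes had called interactions, and are read beside the 2.38% of all genes called. Tubb3, a neuronal tubulin, had values of 7.17, 7.35 and 7.18 in heterozygous and 7.68, 7.70 and 7.51 in homozygous cells under DMSO, and 5.69, 5.62 and 5.70 against 6.76, 6.65 and 6.58 under retinoic acid (interaction 0.60, SE 0.124, adjusted p = 0.00436). The neural list of 24 genes that varied had a median interaction of 0.09, with Prom1 as its other called member. In the list of mesenchyme and interstitial matrix, of which 20 of 22 genes rose on average, Fn1, which encodes fibronectin, had a blunted repression (interaction 0.51, SE 0.0483, adjusted p = 5.93e-08, called in 8 of the 12 fits without a sample). Col5a2, a chain of type V collagen, had a blunted induction (interaction -0.53, SE 0.164, adjusted p = 0.0761, called in 5). The list as a whole had a median interaction of 0.00.

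Among 23 p53 targets 1 was called (4.35%, beside 2.38% of all genes), and the median was 0.05. It was Ccng1, a cyclin G gene (interaction -0.55, SE 0.164, adjusted p = 0.0623, called in 4 of the 12 fits without a sample). Prdm1, a repressor that acts in germ cell specification, was the called member of 23 germline and meiosis genes, also 4.35% (interaction 0.66, SE 0.197, adjusted p = 0.0594, called in 6 of 12).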
